A study of Mus musculus with 9 samples.

Results

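The genes described here are 10 heat shock proteins and chaperones, Hspa1a, Hspa1b, Dnajb1, Dnaja1, Hspa8, Hsp90aa1, Hsp90ab1, Hspe1, Hspd1 and Hsph1, of the 27998 genes in the count tables. They were taken by symbol and chosen by measured values, the lower Hspa1a and Dnajb1 counts after light in these same cells. Their levels by day are therefore given as a description, and the fits by day are not a test of them. All 10 had counts in the retained cells, from 13 unique molecular identifiers (UMIs, 1 per captured transcript) for Hsph1 to 2052 for Hspa8. A further 93 chaperone and heat shock genes, listed by family, were set beside them.

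Chaperones bind unfolded proteins and keep them from clumping. Hsp70 proteins work in cycles of ATP use together with J-domain proteins, which bring in clients, and nucleotide exchange factors, which release them. Hsp90 takes over clients that are nearly folded, and Hsp60 with its lid Hsp10 folds proteins in mitochondria. Heat, oxidation and other stresses switch on the inducible members through heat shock factor 1, whereas the constitutive members serve every cell. In brain and retina, microglia are also known for a rapid rise of immediate-early and heat shock transcripts when tissue is dissociated with enzymes at body temperature.

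Retinas came from female Arr1-/- mice aged 2 to 5 months that were bred and kept in the dark. Arr1 encodes visual arrestin (gene symbol Sag), and without it rods and cones degenerate in light. All groups carried the deletion and no wild-type library was analysed here, and the labels separate the groups by light: no light (day 0), 7 days or 20 days of constant room light at about 200 lux. Retinas were digested with collagenase at 37 °C for 15 to 20 min, and live CD45+ CD11b+ cells were sorted and captured on the 10x Genomics 3′ platform. Each time point drew on 8 retinas from 4 mice, and 3 libraries stand for each day. How mice map to libraries is unknown, so p-values measure the spread between libraries only. The treatment labels count days and the sample titles give the same figures in hours, and days are used here.

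Cell barcodes were shared between libraries. The 9 libraries listed 5022 barcode entries but 1365 different barcodes, of which 612 stood in more than 1 library and 270 in all of them, and any pair of libraries shared 270 to 542. A barcode was assigned to the single library that held the largest number of its UMIs, and its entries elsewhere were dropped. Of the 851 cells that then passed quality control, 736 had more UMIs of a myeloid marker list than of any list for another cell type and were retained (254 at day 0, 283 at day 7 and 199 at day 20). All 16 myeloid markers, among them Csf1r, C1qa and Cx3cr1, were detected. Retained cells gave 20443 to 265207 UMIs per library, and day 7 replicate 3, with 17 cells, was the shallowest. Sag had 0 to 2 UMIs in a library and 11 in all. Photoreceptor markers made up 1114 to 6931 CPM (UMIs of a gene per 1000000 UMIs of the library) of retained cells at day 0 and 214 to 1272 afterwards, and immediate-early genes (21 genes such as Fos, Jun and Egr1) made up 40102 to 51226 CPM at day 0, 3143 to 7093 at day 7 and 9365 to 24144 at day 20. The part of either in the day differences below was not tested.

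The upstream sequences of the inducible genes are shown first, since heat shock factor 1 binds arrays of inverted GAA units. Both arrangements of a pair, GAANNTTC and TTCNNGAA, were searched in the windows of the RefSeq promoter table (250 bases before to 50 after each start, GRCm38.p6), and 15.1% of the 32851 windows held either one. Each motif reads the same on both strands. The table held windows for 7 of the 10 genes. Hspa1a (chr17:34969190-34972156) and Hspa1b (chr17:34956436-34959238) lie on the minus strand 9951 bases apart, and Dnajb1 lies on the plus strand (chr8:83608193-83612653). The bases just before the start sites of these 3 are printed, with matches in capitals.

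Hspa1a, chr17:34972157-34972406, minus strand: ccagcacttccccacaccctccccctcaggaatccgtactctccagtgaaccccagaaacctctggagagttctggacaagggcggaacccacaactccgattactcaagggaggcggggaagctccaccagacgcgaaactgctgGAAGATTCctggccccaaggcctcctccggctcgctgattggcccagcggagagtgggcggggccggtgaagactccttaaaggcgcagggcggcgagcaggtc
Hspa1b, chr17:34959239-34959488, minus strand: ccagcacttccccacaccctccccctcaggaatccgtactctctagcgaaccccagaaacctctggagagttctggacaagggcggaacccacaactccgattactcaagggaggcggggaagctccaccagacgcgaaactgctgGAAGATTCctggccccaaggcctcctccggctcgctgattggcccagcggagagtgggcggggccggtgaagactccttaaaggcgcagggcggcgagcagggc
Dnajb1, chr8:83607972-83608174, plus strand: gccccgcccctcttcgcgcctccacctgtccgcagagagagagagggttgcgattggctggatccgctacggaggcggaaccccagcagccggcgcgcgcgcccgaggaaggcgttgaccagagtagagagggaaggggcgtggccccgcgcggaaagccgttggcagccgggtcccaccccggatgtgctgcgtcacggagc

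Of the 250 bases before the starts of Hspa1a and Hspa1b, 3 differed: C44T, T47C and T249G, with the Hspa1a base first and positions counted from 1 at the 5′ end. Both held 1 match, 104 to 97 bases upstream. Neither window of Dnajb1 held these letters. Shorter stretches from 3 further genes show the other matches, and in Hspe1 the 2 motifs overlapped into a run of 18 bases, a length that 0.0244% of windows reached. Hsph1 also held a run of 13 bases just after its start, which is not printed. Hspd1 (chr1:55077835-55088243, minus strand) and Hspe1 (chr1:55088132-55091307, plus strand) are head to head and overlap by 112 bases, so the run also fell in a window of Hspd1, read on the other strand.

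Hspe1, chr1:55088053-55088082, plus strand: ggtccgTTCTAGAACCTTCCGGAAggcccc
Hsph1, chr5:149636351-149636380, minus strand: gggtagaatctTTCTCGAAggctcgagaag
Dnaja1, chr4:40722333-40722362, plus strand: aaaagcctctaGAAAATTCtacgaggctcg

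Taken as a group, the 10 genes summed to 4706 to 6067 CPM in the libraries of day 0, 1663 to 3088 at day 7 and 2820 to 3174 at day 20. Every library after light lay below every library of day 0. Of the 10, 7 had enough counts for the test across all genes. In that fit 6 of them were past an adjusted p of 0.05 at day 7 compared with day 0, where 27% of the 1358 genes tested were, 2 at day 20 compared with day 0 (3.31% of all genes), and 0 at day 20 compared with day 7 (4.49%). These contrasts helped to choose the genes, and nothing is read from the counts. With every deposited barcode entry counted, shared ones included, 1 was past the threshold at day 7, where 69 of all 2621 genes tested were. It was Hspe1, which rose, and none of the 10 genes that fell was past it. At day 20 in these counts 0 were, where 0 of 2621 were. Hspa1a then averaged 445 ± 166 CPM (SD, n = 3) at day 0, 232 ± 104 at day 7 and 254 ± 19.0 at day 20, and Dnajb1 425 ± 41.8, 244 ± 147 and 215 ± 18.8. With the 247 cells whose barcode stood in 1 library only, 1 of the 10 genes could be tested, Hspa8, whose log2 change at day 7 was 0.094 ± 0.50. Fits that left out 1 library called 2 to 5 of them at day 7, where they called 192 to 538 of all genes, with 2 when day 0 replicate 2, day 7 replicate 1 or day 7 replicate 2 was missing and 3 without day 0 replicate 3 or day 20 replicate 1. Of those 9 fits, Hspa1a and Dnajb1 were called in 9, Hspe1 in 5, Dnaja1 and Hsp90aa1 in 4 each, and Hspa8 in 0. These fits reuse the values that chose the genes, and Hspa1a and Dnajb1 passed the filter on low counts through day 0. Calls that were kept are therefore no support for a change in them.

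**Figure D1:**
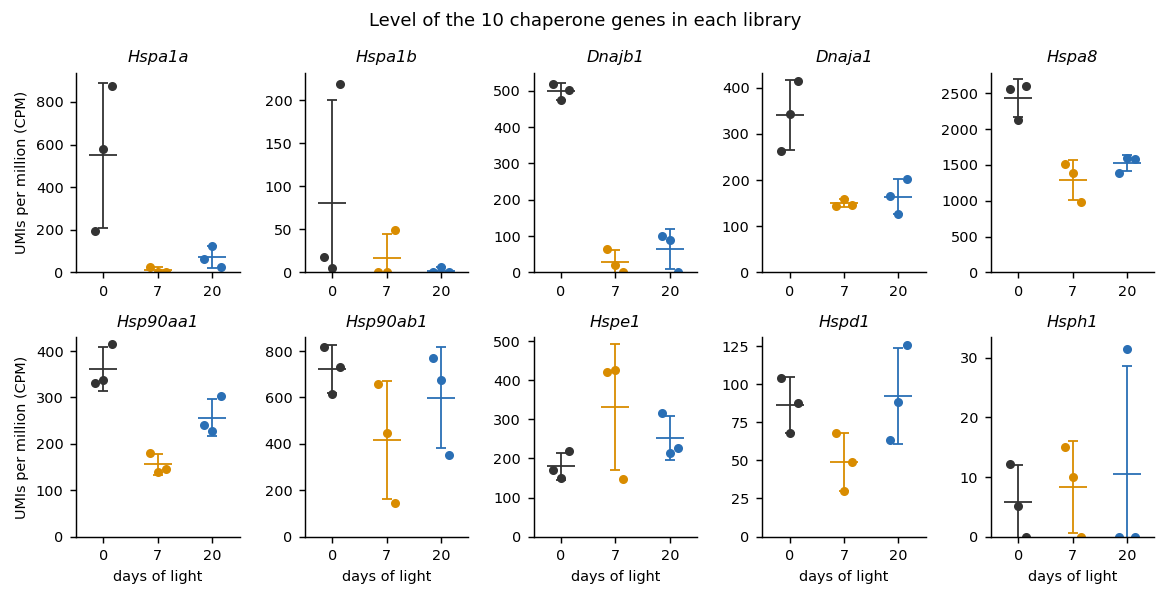
Level of each of the 10 genes in CPM ( y axis from 0, own scale per panel) against days of light. Points are the 3 libraries of a day, the wide tick is their mean and the bar is 1 SD, cut at 0. Hspa1a and Dnajb1 stand highest at day 0, and Hspe1 has its highest libraries at day 7 (422 and 428 CPM).

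The stress-inducible Hsp70 gene Hspa1a, whose product is the Hsp70 that cells make in quantity after heat shock, had 196, 578 and 875 CPM in the 3 libraries of day 0. After 7 days of light it had 26, 0 and 0 CPM, and after 20 days 63, 126 and 25. The libraries of day 0 did not overlap those of either later day, while days 7 and 20 overlapped each other. The log2 change was -4.80 ± 0.74 (edgeR, ± SE) at day 7 and -2.65 ± 0.58 at day 20. With 1 library left out, the day 7 value ran from -8.80 to -4.24, the lowest without day 7 replicate 1, which leaves day 7 with 0 UMIs and a fitted value that depends on the prior count. The day 20 value ran from -3.46 without day 20 replicate 2 to -2.09 without day 0 replicate 3, where it was not past the threshold. Its near-copy Hspa1b had 18, 5 and 219 CPM at day 0, 0, 0 and 49 at day 7, and 0, 6 and 0 at day 20. In UMIs these were 24 at day 0, 20 of them in replicate 3, and 1 at each later day. The ratio of day 0 to day 7 was 20.7, with an exact counting interval of 3.38 to 853, and that of day 0 to day 20 was 14.9 (2.43 to 613). These intervals pool the UMIs of a day and leave out the spread between libraries and cells. By library, day 0 overlapped both later days, and 2 cells held 75% of the day 0 UMIs. The intervals are therefore no support for a change. Hspa1b did not pass the filter on low counts. Of the stretches of 50 bases in the Hspa1a transcript, 58.8% also stand in that of Hspa1b, although none of the last 786 bases of Hspa1a lies in a shared stretch, and how reads were divided between them was not tested.

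Dnajb1, the J-domain partner through which inducible Hsp70 takes its clients, was the most even of the inducible genes at day 0. It had 520, 474 and 503 CPM there, then 64, 20 and 0 at day 7 and 101, 88 and 0 at day 20. Both later days lay below day 0 without overlap. The log2 change was -3.34 ± 0.51 at day 7 and -2.72 ± 0.48 at day 20, and the day 7 value was -4.73 without day 7 replicate 1. The libraries at 0 were the third replicates of both later days, in which 3 UMIs would have been 147 and 75.5 CPM. Dnaja1, a J-domain protein that serves constitutive Hsp70, had 263, 344 and 415 CPM at day 0, 143, 159 and 147 at day 7, and 165, 126 and 201 at day 20. Day 0 was again above every later library, by less than for Dnajb1 (log2 change -1.06 ± 0.32 and -1.12 ± 0.32).

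Hspa8, the constitutive Hsp70 of the cytosol that also uncoats clathrin vesicles, was the most abundant of the 10 in every library. It had 2563, 2129 and 2602 CPM at day 0, 1512, 1382 and 978 at day 7, and 1392, 1593 and 1586 at day 20. Day 0 stood apart and the later days overlapped. The log2 change was -0.76 ± 0.23 at day 7 and -0.68 ± 0.23 at day 20. With 1 library left out, the day 7 value ran from -0.88 to -0.53 and was past the threshold in 0 of 9 fits. Hsph1, the Hsp110 nucleotide exchange factor for Hsp70, had 3, 5 and 5 UMIs at the 3 days, too few to compare.

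The Hsp90 genes are described in turn, and no test compared them with each other. Hsp90aa1, the more inducible of the cytosolic pair, had 330, 338 and 415 CPM at day 0, 181, 139 and 147 at day 7, and 240, 227 and 302 at day 20. Its 3 days did not overlap, with day 20 between the others, and its log2 change was -1.03 ± 0.29 at day 7 and -0.53 ± 0.28 at day 20. With every deposited barcode entry counted, day 20 overlapped both day 0 and day 7, and day 7 stayed below day 0. The constitutive Hsp90ab1 had 820, 614 and 732 CPM at day 0, 656, 448 and 147 at day 7, and 772, 674 and 352 at day 20. All 3 days overlapped, and the lowest value was in the shallowest library, day 7 replicate 3. The log2 change of Hsp90ab1 was -0.49 at day 7 and -0.23 at day 20, neither past the threshold. With 1 library left out, the day 7 value ran from -0.93 to -0.15.

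Of the mitochondrial chaperonin genes, Hspe1 did not fall with the Hsp70 genes. Hspe1, the Hsp10 lid of the chaperonin, had 171, 151 and 219 CPM at day 0, 422, 428 and 147 at day 7, and 316, 214 and 227 at day 20. At day 7 it was higher in 2 of 3 libraries, and the log2 change was 1.20 ± 0.33, with 158 UMIs at day 7 against 77 at day 0. With every deposited barcode entry counted, every library of day 7 was above day 0 (341 ± 33.8 against 211 ± 24.0 CPM, SD, n = 3). Hspd1, the Hsp60 barrel encoded beside it, had 104, 68 and 87 CPM at day 0, 68, 30 and 49 at day 7, and 63, 88 and 126 at day 20, and its days overlapped. In the deposited entries, every day 7 library of Hspd1 was below day 0 (64.8 ± 13.8 against 91.6 ± 15.0 CPM, SD, n = 3). Hspe1 and Hspd1 have 6 and 5 named pseudogenes in the GENCODE M21 annotation, none of which is a row of the count tables, and Dnaja1 has 1.

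Without overlap, 5 of the 7 tested genes were lower at day 7 than at day 0 in every library, where 26% of all tested genes were, and 5 at day 20, where 14% were. These contrasts helped to choose the genes, so nothing is read from the counts. The order of those 5 by size of change at day 7 was Hspa1a, Dnajb1, Dnaja1, Hsp90aa1 and Hspa8. With every deposited barcode entry counted, Hspa8 and Hsp90aa1 stayed below day 0 at day 7, while Hspa1a, Dnajb1 and Dnaja1 overlapped it. Dnaja1, Hsp90aa1 and Hspa8, at -1.06 ± 0.32, -1.03 ± 0.29 and -0.76 ± 0.23, had overlapping SE ranges.

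The UMIs of the inducible genes were held by few cells. At day 0, 35 of 254 cells had a UMI of Hspa1a, the richest cell had 51 of the 223 UMIs, and 5 cells from 2 libraries held 61.9% of them. Those 5 cells held 7.74% of all day 0 UMIs, and the 5 deepest cells of the day held 10.8%. The same figure for the richest 5 cells was 39.2% for Dnajb1, 32.0% for Dnaja1, 20.9% for Hspa8 and 18.2% for Hspe1. The 5 Hspa1a-rich cells had 3688 to 9163 UMIs each, of which immediate-early genes were 5.12% to 11.5%. Without the richest 5 cells of each day, Hspa1a averaged 198 ± 35.0 CPM (SD, n = 3) at day 0, 2.70 ± 4.68 at day 7 and 16.8 ± 14.5 at day 20, and Dnajb1 327 ± 87.6, 13.6 ± 11.8 and 14.1 ± 13.3. That step took 71.4% of the 7 Hspa1a UMIs of day 7 and 84.6% of the 26 of day 20. For Dnajb1 it took 63.2% of 19 and 77.3% of 22. Cells were left out by the gene itself, so the gap that remains is no support for a difference between days. The cell with the most Hspa1b UMIs, 11, was also the one with 51 of Hspa1a, and 7 of the 9 cells with Hspa1b had Hspa1a.

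**Figure D2:**
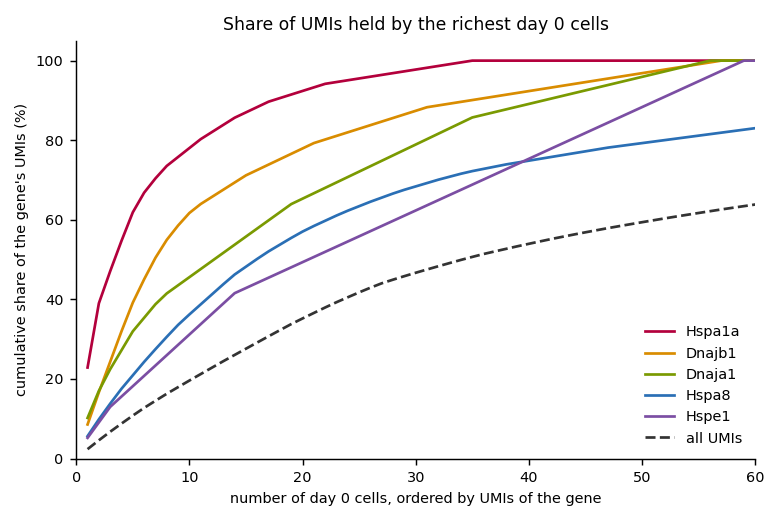
Cumulative share of a gene's day 0 UMIs (y axis, percent) held by the richest cells (x axis, number of cells out of 254, ordered by UMIs of that gene). The dashed line is the same for all UMIs, ordered by cell depth. The richest 10 cells hold 78.0% of Hspa1a and 61.7% of Dnajb1 UMIs, against 19.6% of all UMIs in the deepest 10.

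To compare shares of cells with a UMI, every cell was thinned to 579 UMIs, a depth that 553 of the 736 retained cells reached. Hspa1a was then detected in 8.34% ± 3.77 (SD, n = 3 libraries) of day 0 cells, 0.525% ± 0.909 at day 7 and 2.30% ± 1.44 at day 20, and Dnajb1 in 12.6% ± 1.98, 1.22% ± 1.48 and 1.37% ± 1.52. Unthinned, the shares for Hspa1a were 14.9%, 1.21% and 4.07%, and for Dnajb1 22.0%, 2.64% and 3.96%. Hspa8 was found in 58.1% ± 4.47 of thinned cells at day 0 and in 50.4% ± 5.48 and 50.3% ± 4.50 later, and the libraries overlapped. Hspe1 was found in 10.8% ± 4.28, 18.7% ± 4.82 and 17.6% ± 5.24. In the 81 cells left out because photoreceptor markers led, 69 of them from day 0, the thinned share was 4.52% for Hspa1a and 7.38% for Dnajb1, at a median depth of 1121 UMIs against 626 to 1088 in the retained libraries. Retained cells were at or below those values for both genes in every library after light, and for Hspa1a in day 0 replicate 1 (4.49%). The values come mostly from day 0 cells, which may hold transcripts of their own, so they are not a measure of free RNA. Hsp90aa1, at 66.8% in the left-out cells, was at 3.13% to 14.5% in the retained libraries. Free RNA was not measured, and its part in the shares of any gene was not tested.

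Among the other 93 genes, 27 passed the filter on low counts. At day 7 compared with day 0, 1 rose and 3 fell, where 27% of all 1358 genes tested were past the threshold. At day 20, 0 rose and 1 fell, where 3.31% of all genes were. The median log2 change was -0.24 at day 7 and 0.0090 at day 20, beside -0.08 and -0.01 over all genes tested. Ubb encodes ubiquitin, the tag that marks damaged proteins for breakdown, and is itself heat-inducible. Ubb fell from 5673 ± 1409 to 2263 ± 99.8 CPM at day 7 (-1.21 ± 0.24, adjusted p = 0.00195) and was 2896 ± 202 at day 20 (-0.97 ± 0.23, adjusted p = 0.035). Its call held at day 7 in all 9 fits with a library left out, but at day 20 in 2 of them, those without day 0 replicate 2 or day 7 replicate 3. With every deposited barcode entry counted, 0 of 2621 genes were past the threshold at day 20, so the day 20 call of Ubb was lost.

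Chaperones of the endoplasmic reticulum, which fold secreted and membrane proteins, had 9 genes tested. At day 7, 2 of them fell and none rose, where 27% of all genes tested were past the threshold. Hspa5, the Hsp70 of this compartment known as BiP, went from 807 ± 116 CPM to 324 ± 205 (log2 change -1.41 ± 0.41, adjusted p = 0.0205). It was not past the threshold without day 0 replicate 3 or day 7 replicate 1 or 2, and over all 9 fits its log2 change was -1.58 to -0.95. Dnajb9, its J-domain partner, fell from 229 ± 88.8 to 27.5 ± 26.5 CPM (-2.33 ± 0.53, adjusted p = 0.00565) and held in all 9 such fits. However, it passed the filter on low counts through day 0, with 141 to 318 CPM there against 0 to 52.8 at day 7. Its call is therefore a description. At day 20, 0 of the 9 were past the threshold. Dnajb9 was then 58.8 ± 38.4 CPM, with every library below those of day 0 (-1.76 ± 0.51, adjusted p = 0.0690), and Hspa5 387 ± 141 CPM (-1.02 ± 0.38, adjusted p = 0.186). Of 7 TRiC and prefoldin genes, which fold actin and tubulin, Pfdn5 rose at day 7, from 726 ± 88.1 to 1329 ± 197 CPM (0.97 ± 0.25, adjusted p = 0.0107). It was not past the threshold without day 0 replicate 2 or 3 or day 7 replicate 1.

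None of the 2 further Hsp70 and J-domain genes, 2 Hsp70 co-chaperones, 4 Hsp90 co-chaperones and 1 mitochondrial gene tested was past the threshold at either day compared with day 0. The most abundant of each are Dnajb6 (log2 change 0.21 ± 0.41 at day 7), a J-domain protein, Bag1 (0.12 ± 0.41), a nucleotide exchange factor, Cdc37 (0.23 ± 0.38), which brings kinases to Hsp90, and Hspa9 (-0.31 ± 0.35), the Hsp70 of mitochondria. No small heat shock protein passed the filter, and Cryab, the most abundant of the 7, had 76 UMIs in all.

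**Figure D3:**
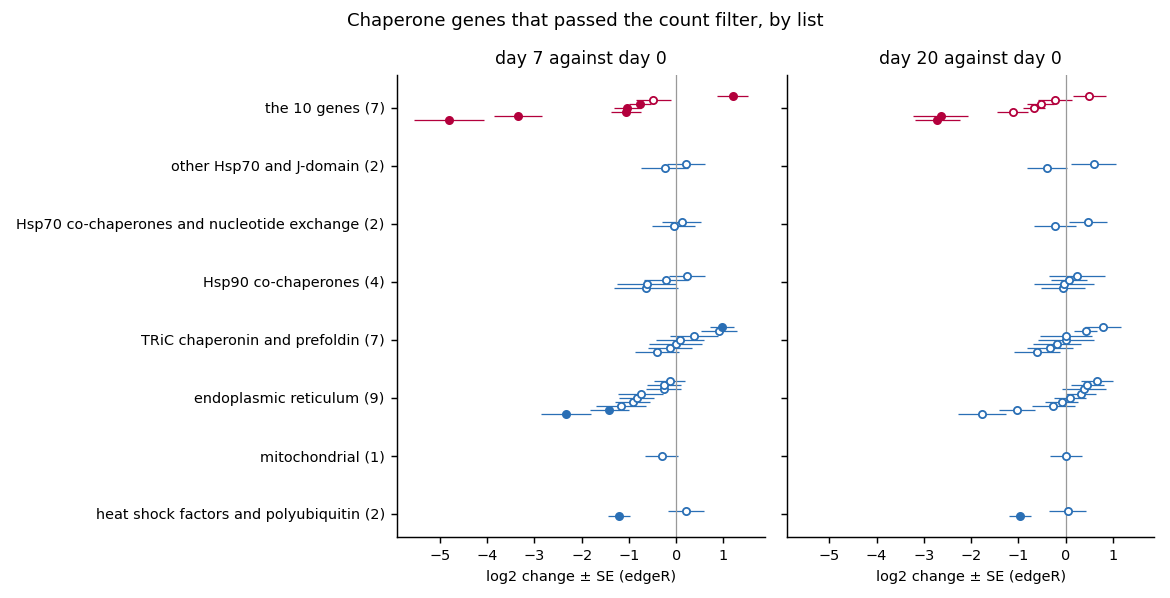
Log2 change and its SE (x axis, edgeR) at day 7 (left) and day 20 (right) compared with day 0 for each chaperone gene that passed the filter, by list, with the number of genes in parentheses. Filled points had an adjusted p under 0.05, red points are the 10 genes and blue points the other lists. Among the blue points, Ubb is filled on both sides, while Hspa5, Dnajb9 and Pfdn5 are filled at day 7 only, which does not test whether the days differ.

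Next, cells were compared within libraries, a comparison that played no part in the choice of genes. The cells of each library were split at the median share of UMIs in immediate-early genes, which gave a high group and a low group per library, and the counts of these groups were compared with library as a block and the immediate-early genes left out. Day 7 replicate 3 had under 10 cells per group, which left 8 libraries. The high groups were deeper in sum in all 8, and their median cell had 790 to 1470 UMIs against 519 to 1047 in the low groups, although the low group had the deeper median cell in day 0 replicate 1 (912 against 790) and day 20 replicate 3 (927 against 852). The part of depth in the result was not tested. Of 573 genes tested, 27.7% were past the threshold, and of the 10 genes 3 of the 4 that passed the filter were higher in the high groups. Hspa8 had a log2 difference of 0.82 ± 0.20 (adjusted p = 0.00488), Hsp90aa1 1.12 ± 0.24 (adjusted p = 0.00224) and Hsp90ab1 0.55 ± 0.18 (adjusted p = 0.0306). Hspe1 differed by 0.09 ± 0.20 (adjusted p = 0.833). In plain CPM Hsp90aa1 was higher in the high group of 7 libraries, Hsp90ab1 of 6, Hspa8 of 5 and Hspe1 of 1. Hspa8 and Hsp90aa1 kept their calls in each of the 8 fits with a library left out. Hsp90ab1 held in 3, those without day 7 replicate 1, day 7 replicate 2 or day 20 replicate 3 (adjusted p = 0.0176 to 0.0231). Hsp90ab1 had an adjusted p of 0.0540 to 0.108 in the other fits. The call of Hsp90aa1 depended on which cells were used, and its low groups held 3 to 20 UMIs per library. With every cell that passed quality control, Hspa8 and Hsp90ab1 were called and Hsp90aa1 was not. Without the 5% of cells with the most UMIs, Hspa8 alone was called. With cells of at least 100 detected genes, Hspa8 and Hsp90aa1 were called and Hsp90ab1 was not.

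The libraries did not behave alike. In the high and low groups, Hspa8 had 3066 and 1538 CPM in day 0 replicate 1, 2460 and 1118 in replicate 2 and 3172 and 1447 in replicate 3. At day 7 it had 1502 and 1531 CPM in replicate 1 and 1375 and 1432 in replicate 2, and at day 20 it had 1442 and 1278, 1855 and 1090, and 1432 and 1746 in replicates 1 to 3. The high group was well above the low group in every library of day 0 and in day 20 replicate 2, slightly above it in day 20 replicate 1, and below it in the other 3 libraries. By a test chosen after seeing the data (interaction in edgeR), the difference between groups was larger at day 0 than after light for Hspa8. The excess was 1.31 ± 0.27 on the log2 scale (adjusted p = 0.0121), and 1.22% of the 573 genes passed this test. The low groups of Hspa8 had 1118 to 1538 CPM at day 0 and 1090 to 1746 after light. Unlike the comparison within libraries, this test sets days against each other. It draws on the day 0 excess of the high groups and is not separate from the day difference. For Hsp90aa1 the same quantity was 0.77 ± 0.47 (adjusted p = 0.521), for Hsp90ab1 0.71 ± 0.34 (adjusted p = 0.367) and for Hspe1 -0.01 ± 0.43 (adjusted p = 0.997). The median immediate-early share of the high groups was 1.15% to 3.16% at day 0 and 0.289% to 0.448% in the libraries after light, so the groups were split at different levels.

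The other 6 genes were too sparse for that fit, and their counts are given without a test. In the high and low groups of the 3 day 0 libraries, Hspa1a had 31 and 1, 111 and 0, and 78 and 2 UMIs, and Dnajb1 had 77 and 8, 88 and 3, and 42 and 4. Over all 8 libraries there were 248 and 8 UMIs of Hspa1a, 246 and 17 of Dnajb1, 207 and 35 of Dnaja1, 25 and 0 of Hspa1b, 52 and 31 of Hspd1, and 10 and 3 of Hsph1. These UMIs are not scaled for depth, and the high groups were deeper in sum. In mean CPM the high and low groups had 327 and 25.9 for Hspa1a, 300 and 47.4 for Dnajb1, and 278 and 118 for Dnaja1. The high group was higher in 5 of 8 libraries for Hspa1a and in 6 each for Dnajb1 and Dnaja1. Hspd1 was lower in mean CPM in the high groups (64.2 against 98.4) and was higher there in 4 of 8 libraries. In a fit of the day 0 libraries alone, also chosen after seeing the data, 47.8% of 718 genes were past the threshold. Among them were Hspa8 (log2 difference 1.45 ± 0.15), Hsp90aa1 (1.38 ± 0.34) and Hsp90ab1 (0.81 ± 0.22). Hspa1a, Dnajb1 and Dnaja1 passed the filter of that fit through the groups where they were high, so they are not counted and no test of them is given. In a fit of the libraries after light, likewise chosen after seeing the data, 3.36% of 566 genes were past the threshold. Of the 10 genes it tested 3, and 0 of them were past it.

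**Figure D4:**
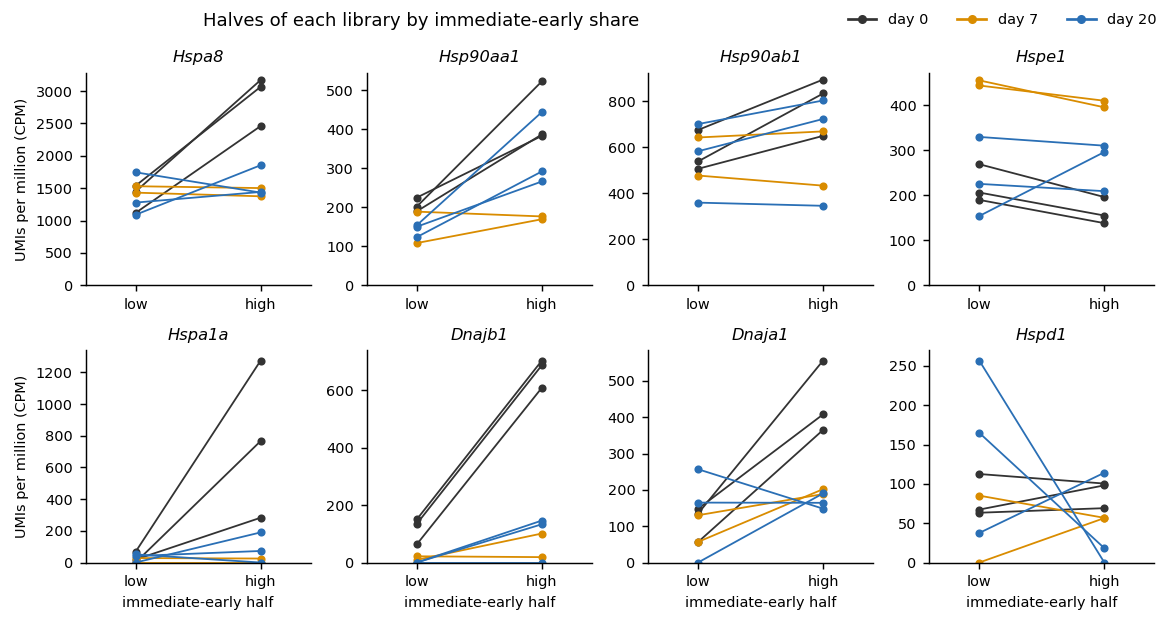
Level in CPM (y axis from 0, own scale per panel) of 8 genes in the low and high immediate-early groups of a library (x axis), 1 line per library and 8 libraries in all. Lines of day 0 rise in Hspa8, Hsp90aa1, Hsp90ab1, Hspa1a, Dnajb1 and Dnaja1, whereas Hspe1 is higher in the high group in 1 of 8 libraries.

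Of the other chaperone lists, 10 genes were tested in these groups, and 4 were higher and 1 lower in the high groups. Of all 573 genes tested, 27.7% were past the threshold. Hspa5 (2.14 ± 0.33, adjusted p = 6.32e-05) and Ubb (0.98 ± 0.21, adjusted p = 0.00165) held in all 8 fits that left out 1 library. The endoplasmic reticulum Hsp90 gene Hsp90b1 (0.95 ± 0.30, adjusted p = 0.0256) held in 5, and was lost without day 0 replicate 1, day 0 replicate 2 or day 20 replicate 2. Pdia3, a disulfide isomerase (0.64 ± 0.22, adjusted p = 0.0376), held in 3 and Pfdn5 (-0.41 ± 0.15, adjusted p = 0.0498) in 2, and both were lost without day 0 replicate 1 or 2 or day 20 replicate 1 or 2, Pdia3 also without day 7 replicate 2 and Pfdn5 also without day 0 replicate 3 or day 20 replicate 3.

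After light, some cells carried transcripts of MHC class II, the molecules that present antigen to T cells, which were 620 to 2110 CPM of retained cells at day 0 and 5932 to 40405 later. Cells with at least 2 UMIs of 4 class II genes at the thinned depth were compared with cells that had none or 1, within the 5 libraries of days 7 and 20 that had at least 10 cells of each kind. Of the 10 genes, 3 were tested. Hspa8 differed by 0.39 ± 0.23 on the log2 scale (adjusted p = 0.782), Hsp90ab1 by 0.10 ± 0.23 (adjusted p = 0.983) and Hspe1 by -0.14 ± 0.23 (adjusted p = 0.945). Over all 471 genes edgeR made 0 calls (0%), though 28 had an unadjusted p under 0.05, and 0 calls came from DESeq2.

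The genes whose log2 level followed the summed level of Hspa1a, Hspa1b, Dnajb1 and Hsph1 most closely over the 9 libraries were Csrnp1 (Pearson r = 0.977, Spearman rho = 0.967), Eif5 (0.961, 0.917), Cebpa (0.950, 0.900), Plek (0.945, 0.967) and Nfkbiz (0.942, 0.967), of 1076 genes compared. The 9 points share their days and their dissociation, so this is a description.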

How the data were processed

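Single-cell libraries of sorted retinal cells were deposited by the authors as UMI counts per gene and barcode. The submitters' notes name Cell Ranger and mm10, and versions are not given in the sources used here. Each barcode was kept in the library where its UMI total was highest. Cells had at least 200 genes, under 10% mitochondrial UMIs and more UMIs of the myeloid list than of each list for another cell type. No doublet caller was run, and an alternative left out the 5% of cells with the most UMIs. Counts were summed per library and tested with edgeR 4.0.16 in R 4.3.3 (quasi-likelihood, TMM, low counts filtered, Benjamini-Hochberg), with DESeq2 1.42.0 as an alternative. The rest used Python 3.11.15, numpy 2.4.6, scipy 1.17.1, pandas 2.3.3 and matplotlib 3.10.9. Deviations from the day mean correlated at -0.056 to 0.154 between libraries of equal replicate number and at -0.148 to 0.106 between different numbers. So weak a signal cannot exclude a batch shared by replicate number. Replicate 3 had the fewest retained cells at days 0, 7 and 20 (55, 17 and 32). Named genes were the 10 genes, other chaperones past the threshold in any contrast, the most abundant gene of each list, and the 5 nearest patterns with a mean of at least 100 CPM. The genes and lists were chosen with earlier results of these data known. One listed gene is not reported here. Scripts were tested on simulated data. Intervals on counts cover counting error only. Gene positions are from GENCODE M21 (GRCm38), and sequences are from RefSeq tables of GRCm38.p6.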

Additional observations from a re-analysis of the deposited data

Results flagged for a closer look

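In the 81 cells left out because photoreceptor markers led, which the comparisons of days in the report did not use, Hsp90aa1 stood at 2360 CPM (248 UMIs, exact 95% interval 2075 to 2673 for counting error only), above the 415 CPM of the highest library of retained cells. Its thinned share there was 66.8% of cells. The other 9 genes were below the highest retained library in those cells.

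For 3 genes the difference between high and low immediate-early groups was larger in the 3 libraries of day 0 than in the 5 libraries after light, by a test of that difference chosen after seeing the data (edgeR interaction, Benjamini-Hochberg over 573 genes). On the log2 scale the excess was 1.31 ± 0.27 for Hspa8 (adjusted p = 0.0121), 1.50 ± 0.22 for Ubb (adjusted p = 0.00104) and 2.26 ± 0.51 for Hspa5 (adjusted p = 0.0269). Over all 573 genes, 1.22% passed this test. For Hspa8 it is not separate from the day difference that helped to choose the genes. Ubb and Hspa5 also had their highest mean level at day 0 (5673 and 807 CPM). For them too the test sets days against each other, so it is not separate from their day differences. The depth of the groups differed as well, and its part was not tested.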

How the results depend on the processing

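Of the 10 genes, 6 were past the threshold at day 7 compared with day 0. This became 3 with no filter on low counts (267 of all 13036 genes) and 1 with deposited counts (Hspe1, which rose, among 69 of 2621). It was 2 with every cell that passed quality control (183 of 2103) and 2 without the 5% of cells with the most UMIs (233 of 1154). When 1 library was left out it was 2 to 5 (192 to 538 calls over all genes). In alternatives chosen after seeing the data it was 0 with barcodes listed in 1 library only (6 of 176), where 1 of the 10 genes could be tested. It was 3 in cells without MHC class II UMIs (154 of 540). At day 20 compared with day 0, 2 (45 of 1358 genes) stayed 2 with no filter (58 of 13036) and became 0 with deposited counts (0 of 2621). It was 1 with every cell that passed quality control (37 of 2103) and 1 without the deepest cells (108 of 1154). With 1 library left out it was 1 to 2 (25 to 50 calls over all genes). It was 0 with barcodes of 1 library (0 of 176) and 1 in cells without MHC class II UMIs (11 of 540). In those cells day 20 compared with day 7 went from 0 to 1 (75 of 540). In the immediate-early groups, 3 became 6 with no filter (447 of all 12923 genes), 7 with deposited counts (647 of 1034), 1 without the deepest cells (50 of 471) and 2 to 3 with 1 library left out (85 to 195 calls over all genes). The 6 included Hspa1a, Hspa1b, Dnajb1 and Dnaja1, which had 8, 0, 17 and 35 UMIs in the low groups. Among the 7 was Hspe1, called lower in the high groups. In fits chosen after seeing the data the count was 6 with day 0 libraries only (343 of 718 genes) and 0 after light only (19 of 566). Hspa1a, Dnajb1 and Dnaja1 were among those of day 0 and entered through the groups where they were high. For MHC class II it was 0 in all. The replicate block gave 6, 2 and 0 for the day contrasts (350, 39 and 57 of 1358 genes), although whether equal numbers share a batch is unknown. Among values with a call in either fit, direction turned for Hspa8 at day 7 (0.094) with barcodes of 1 library and for Hspe1 in the groups with deposited counts (-0.64). The causes were not tested.

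Over all genes, 367 calls of 1358 genes at day 7 became 69 of 2621 with deposited counts, 183 of 2103 with every cell, 233 of 1154 without the deepest cells, 6 of 176 with barcodes of 1 library and 154 of 540 in cells without MHC class II UMIs. The 45 at day 20 became 0, 37, 108, 0 and 11, and the 61 between days 20 and 7 became 0, 12, 14, 0 and 75. The 159 of 573 in the groups became 447 of 12923 with no filter, 647 of 1034 with deposited counts and 50 of 471 without the deepest cells. The 0 of 471 for MHC class II became 3 of 11541, 86 of 918 and 0 of 447 in the same order. Of the log2 values under alternatives, 770 kept their call or, with no call in either fit, moved by at most 1 SE. Another 118 lost the call, 6 gained one, and 50 with no call in either fit moved by more than 1 SE. The 2 named above turned direction with a call in either fit. Turns of direction with no call in either fit also occurred and are counted by size only. Day 7 replicate 3, with 20443 UMIs, sets the coarsest level: 3 UMIs there are 147 CPM.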
